A study of Rattus norvegicus with 9 samples.

Results

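The proteasome is the protease complex that degrades proteins tagged with ubiquitin, and its subunit genes were followed here in the thalamus of rats fed hard chow or powdered food. The family was chosen by gene symbol alone, as all probe sets annotated with 1 symbol that begins with Psma, Psmb, Psmc, Psmd, Psme, Psmf or Psmg and a digit. This gave 60 probe sets for 46 genes, out of 31042 rat probe sets, of which 20826 carried a single symbol. Of the 46 symbols, 46 were found in the RefSeq gene table for GRCr8. Another 6 probe sets carried several symbols and were left out: 4 list Psme3 with Aoc3 and G6pc1, 1 lists Psma3l with Psma3, and 1 lists Psmb6l1 with Psmb6. A further pair that meets the symbol rule, Psmc3ip and Psme3ip1, encodes no proteasome subunit, and neither was called. No measured value enters the symbol rule, but the family was put forward with the chow and powder results already known, so the counts below describe it and support nothing beyond themselves.

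RNA of the thalamus, the relay region of the forebrain for sensory signals, was hybridised to 9 single-colour expression arrays. The animals were male Wistar rats that entered at 3 weeks of age, and the labels give 5 weeks as the age of the samples. All rats received powder for 2 preparatory days, and then hard chow (4 samples) or powder (5 samples) for 8 days, so both groups had eaten powder. The labels speak of 10 rats and do not tie each array to an animal, so what the p-values reflect is the variation among these samples, which may be technical. The number of arrays limits the precision.

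The 26S proteasome joins a barrel-shaped core to a regulatory particle at its ends. The core has outer alpha rings, which gate the entry, and inner beta rings, which hold the cutting sites. The regulatory particle has a base, whose ATPases unfold the substrate, and a lid, whose Psmd14 removes the ubiquitin chain. The transcription factor NRF1 (Nfe2l1) raises subunit genes together when proteasome activity is short, through antioxidant response elements in their promoters.

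The values are the deposited log2 expression values, and a difference is the chow mean minus the powder mean. In most probe sets the 9 deposited values lay within 0.01 log2 units of each other. These are called compressed here, and the 4849 rat probe sets whose values spanned at least 0.01 are called uncompressed. Of the 60 proteasome probe sets, 9 were uncompressed, for 8 genes (Psma2, Psma6, Psmb2, Psmb3, Psmc1, Psmd14, Psme1 and Psme4), and 51 were compressed. A probe set was called higher or lower at an adjusted p under 0.05 in limma, adjusted over all 31042 probe sets.

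Array chow 1 stood apart in its tissue markers. The summed linear level of the thalamic relay markers, such as Tcf7l2 and Lhx2, was 10849 on chow 1, 13623 to 15572 on the other chow arrays and 14674 to 15681 under powder. The striatal sum was 4072 on chow 1, against 1805 to 2129 and 1800 to 1993, and the inhibitory neuron sum was 6075, against 4011 to 4741 and 3888 to 4756. None of 9 inhibitory probe sets, 1 of 11 striatal (higher) and 2 of 16 thalamic relay probe sets (lower) were called between the diets, and at an unadjusted p under 0.05 there were 1, 1 and 3. Astrocyte markers gave 3 higher of 14, of which 1 was compressed, with sums of 15509 to 16721 under chow and 16394 to 16781 under powder. At an unadjusted p under 0.05 they gave 5 higher and 1 lower. Uncompressed Aqp4 probe sets disagreed, at 0.53 (called) and -0.14 log2 units (not called, adjusted p = 0.0546). Endothelial and pericyte markers gave 5 higher and 4 lower of 13, of which 5 and 2 were on compressed probe sets. These marker counts stand beside 17.9% called higher and 16.7% called lower over all rat probe sets. Hypothalamic sums varied widely within both groups (2427 to 5149 under chow and 1416 to 5270 under powder). The log2 difference between the 3′ and 5′ beta-actin control probes, a sign of RNA integrity, was 1.52 ± 0.0611 (SD, n = 4) under chow and 1.65 ± 0.0602 (SD, n = 5) under powder. Fits without chow 1 and with the beta-actin difference as a covariate were run, and the part of the other marker differences was not tested. With the beta-actin difference in the fit, over all probe sets 567 were called higher and 862 lower, against 5558 and 5195 without it.

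Across the family, 14 of 60 probe sets were called higher under chow, 8 lower and 38 neither. Over all rat probe sets, 17.9% were called higher and 16.7% lower, and the family's shares are to be read against these. Among the 9 uncompressed probe sets, 5 were called higher, 2 lower and 2 neither, where 16.1% of all uncompressed probe sets were called higher and 38.8% lower. The median difference of the 9 was 0.187 log2 units, against -0.11 for all uncompressed probe sets. Rescaling moved the split: with array medians subtracted, 57 proteasome probe sets were called higher and 2 lower, and with quantile normalization 51 and 2, while over all probe sets the counts were 27206 and 2141, and 15610 and 1854. Among the 9 uncompressed probe sets both rescalings gave 6 higher and 2 lower. RNA here comes from whole tissue, so fewer cells of a type and less RNA per cell cannot be told apart.

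Promoter sequences are shown for 5 of the 6 genes with an uncompressed probe set called in either direction, because NRF1 and NF-Y, the CCAAT-binding factor, are known regulators of this family. Each is the 250 bases before the gene's start, from RefSeq (GRCr8), 5′ to 3′. Capitals mark the core of the antioxidant response element (TGACNNNGC) or a CCAAT box (CCAAT), searched on both strands, and in Psmb2 the letters of both kinds overlap.
Psmb2, chr5:144254808-144255057, plus strand: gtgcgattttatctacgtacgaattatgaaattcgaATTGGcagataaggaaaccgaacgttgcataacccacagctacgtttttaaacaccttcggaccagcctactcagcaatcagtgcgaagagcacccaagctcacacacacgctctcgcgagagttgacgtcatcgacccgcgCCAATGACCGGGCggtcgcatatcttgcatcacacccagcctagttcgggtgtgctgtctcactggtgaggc
Psmb3, chr10:83193537-83193786, plus strand: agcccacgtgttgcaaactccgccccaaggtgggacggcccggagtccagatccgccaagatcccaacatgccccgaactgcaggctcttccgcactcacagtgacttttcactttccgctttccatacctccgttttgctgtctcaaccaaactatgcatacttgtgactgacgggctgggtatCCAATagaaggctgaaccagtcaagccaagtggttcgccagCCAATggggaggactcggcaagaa
Psma6, chr6:78514097-78514346, plus strand: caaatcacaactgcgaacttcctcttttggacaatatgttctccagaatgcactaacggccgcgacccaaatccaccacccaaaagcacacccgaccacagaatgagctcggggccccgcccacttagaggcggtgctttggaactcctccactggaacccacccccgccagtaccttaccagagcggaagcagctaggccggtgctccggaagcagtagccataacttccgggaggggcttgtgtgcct
Psmc1, chr6:125122247-125122496, plus strand: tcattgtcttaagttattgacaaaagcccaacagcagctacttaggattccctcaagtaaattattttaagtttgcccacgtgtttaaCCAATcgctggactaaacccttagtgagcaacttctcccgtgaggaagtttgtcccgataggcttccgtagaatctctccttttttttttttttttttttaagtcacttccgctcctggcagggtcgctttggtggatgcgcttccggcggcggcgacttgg
Psme4, chr14:108706393-108706642, plus strand: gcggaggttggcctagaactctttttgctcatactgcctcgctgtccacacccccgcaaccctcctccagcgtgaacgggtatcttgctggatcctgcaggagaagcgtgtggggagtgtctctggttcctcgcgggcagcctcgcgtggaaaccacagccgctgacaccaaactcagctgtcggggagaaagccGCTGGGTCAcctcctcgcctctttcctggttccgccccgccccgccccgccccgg
Psmb2 held 1 antioxidant response element core and 2 CCAAT boxes, Psmb3 held 2 CCAAT boxes, Psmc1 held 1 CCAAT box, Psme4 held 1 antioxidant response element core, and Psma6 held neither. Psmd14, Psma7, Psmd6 and Psmd12 are not shown. Of 40 subunit, chaperone and regulator genes of the family with a promoter entry, 6 (15.0%) held the antioxidant response element core, against 10.1% of all 33469 promoters of the same length. The 6 were Psma3, Psmb2, Psmb5, Psmd1, Psmd9 and Psme4. A CCAAT box stood in 19 of the 40 (47.5%), against 34.0% of all promoters. These matches are descriptions of letters and not binding sites.

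In the core particle, all calls were in the higher direction. Of its 15 constitutive probe sets, for 13 genes, 8 were called higher, 7 were not called and none was called lower in limma (0 lower also at an unadjusted p under 0.05). Of the 8, 5 were compressed, and over all rat probe sets 17.9% were called higher and 16.7% lower. Among the 4 uncompressed core probe sets, 3 were called higher (16.1% over all uncompressed probe sets): Psmb2, Psmb3 and Psma6. In the beta ring, Psmb2, which lies in the catalytic ring without a cutting site of its own, read 9.97, 9.92, 9.97 and 9.88 on the log2 scale under chow, and 9.63, 9.71, 9.72, 9.72 and 9.67 under powder. All 4 chow arrays lay above all 5 powder arrays. The difference was 0.25 ± 0.0273 log2 units (SE), a 1.19-fold higher linear level under chow (adjusted p = 0.00243). Of all uncompressed probe sets, 10.1% lay further above 0.

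Psmb3, a structural beta subunit, had the narrowest spread of the 9. It read 10.09, 10.07, 10.11 and 10.08 under chow, and 10.04, 10.05, 10.04, 10.05 and 10.02 under powder, without overlap. The difference of 0.047 ± 0.00845 log2 units (SE, 1.03-fold, adjusted p = 0.00821) was the smallest in absolute size of the uncompressed family members. Of all uncompressed probe sets, 29.1% lay further above 0.

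In the alpha ring, Psma6 read 10.88, 10.80, 10.82 and 10.72 under chow, and 10.59, 10.49, 10.74, 10.60 and 10.51 under powder. The groups overlapped, since powder 3 lay above chow 4. The difference was 0.22 ± 0.0568 log2 units (SE, 1.17-fold, adjusted p = 0.0234). It was 0.20 without chow 1, and the call was lost (adjusted p = 0.0576). The call was also lost without chow 2, at 0.22 log2 units (adjusted p = 0.0518).

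Psma2, its neighbour in the same ring, read 10.11, 9.84, 10.16 and 10.01 under chow, and 9.83, 9.85, 9.87, 9.89 and 9.77 under powder. Chow 2 fell among the powder arrays and the other 3 chow arrays lay above them all. The difference of 0.19 ± 0.0644 log2 units (SE, 1.14-fold) was not called (adjusted p = 0.0575). Without chow 2 it was 0.25 and called (adjusted p = 0.0132).

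**Figure D1:**
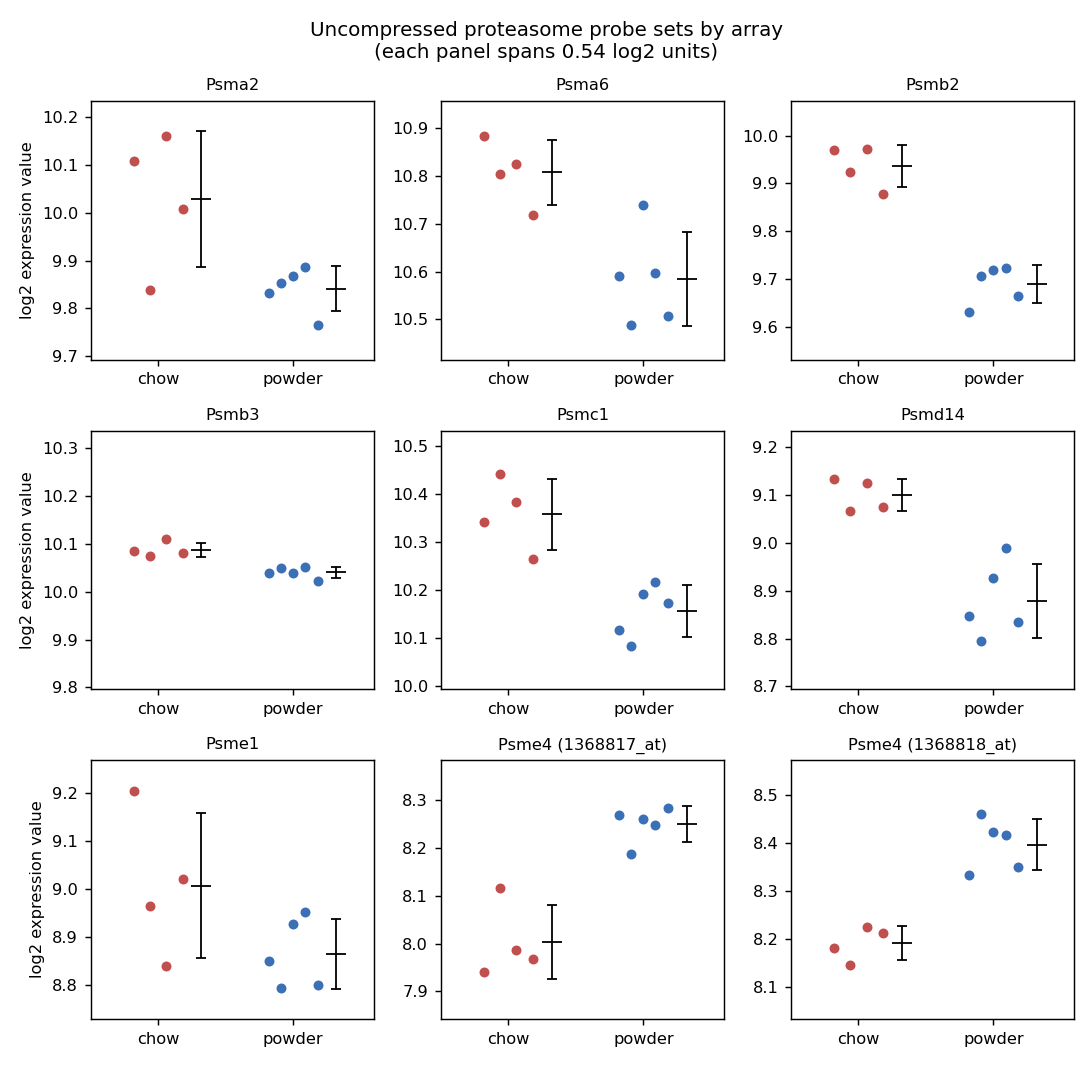
Log2 expression value (y axis) of the 9 uncompressed proteasome probe sets on each of 4 chow (red) and 5 powder (blue) arrays, in replicate order, with the group mean and SD (black). Psmb2, Psmb3, Psmc1 and Psmd14 have all chow arrays above all powder arrays, and both Psme4 probe sets have them below.

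The compressed core probe sets differed far less in size. Psma4, Psma5 and Psma7 in the alpha ring were called higher by 0.000199 to 0.000324 log2 units, and Psma1 and Psma3 were not called. In the beta ring Psmb7, which carries the trypsin-like site, was called higher by 0.000247 log2 units (adjusted p = 0.0128). Of 3 probe sets for Psmb5, which carries the chymotrypsin-like site, 1 was called higher by 0.000209 log2 units (adjusted p = 0.0386) and 2 were not called. Psmb1 and Psmb4 were not called.

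The interferon-inducible beta subunits Psmb8, Psmb9 and Psmb10, which replace the constitutive cutting subunits in the immunoproteasome, were all compressed. None of the 3 was called in limma, and none had an unadjusted p under 0.05. Their differences were 0.000107 to 0.000284 log2 units. Psmb8 and Psmb9 had chow means of 6.85 and 6.91, below the lowest array median of 7.39, and Psmb10 had one of 8.03. With values this close together, the lack of a call does not show that these genes were unchanged.

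In the regulatory particle, calls went in both directions. Of 25 probe sets for 17 genes, 5 were called higher, 6 lower and 14 neither (over all probe sets 17.9% higher and 16.7% lower). Its 2 uncompressed probe sets, for Psmc1 and Psmd14, were called higher, as were 16.1% of all uncompressed probe sets. Each call in the lower direction was on a compressed probe set. With array medians subtracted none of these lower calls remained, and the only 2 lower calls in the family were on Psme4 probe sets. Among the ATPases, Psmc1 read 10.34, 10.44, 10.38 and 10.26 under chow, and 10.12, 10.08, 10.19, 10.22 and 10.17 under powder. The groups did not overlap, with chow 4 nearest to powder 4. The difference was 0.20 ± 0.0418 log2 units (SE, 1.15-fold, adjusted p = 0.0122), and 14.5% of uncompressed probe sets lay further above 0.

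In the lid, Psmd14, the deubiquitinase that releases the ubiquitin chain, read 9.13, 9.07, 9.12 and 9.07 under chow, and 8.85, 8.80, 8.93, 8.99 and 8.83 under powder. The chow arrays lay within a narrow band above the more scattered powder arrays. The difference was 0.22 ± 0.0411 log2 units (SE, 1.17-fold, adjusted p = 0.00894), and 12.6% of uncompressed probe sets lay further above 0. The other 2 Psmd14 probe sets were compressed and not called, so the probe sets of this gene disagree.

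The other ATPase probe sets were compressed. Of 2 for Psmc4, 1 was called higher by 0.000446 log2 units (adjusted p = 0.00626), and 2 of 3 for Psmc6 were called lower (-0.000168 and -0.00026 log2 units). Psmc2, Psmc3 and Psmc5 were not called. Of the base subunits without ATPase activity, Psmd1, a large scaffold, was called lower by -0.000201 log2 units (adjusted p = 0.0112), while the ubiquitin receptor Psmd4 and Psmd2 were not called. In the lid, Psmd6 was called higher by 0.000142 log2 units and Psmd13 lower by -0.00034 (adjusted p = 0.0204 and 0.00154). One of 3 Psmd11 probe sets was called lower by -0.000358 log2 units (adjusted p = 0.0264). The Psmd7 probe sets disagreed, at 0.000231 and -0.000404 log2 units, each called. Psmd3, Psmd8 and Psmd12 were not called.

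**Figure D2:**
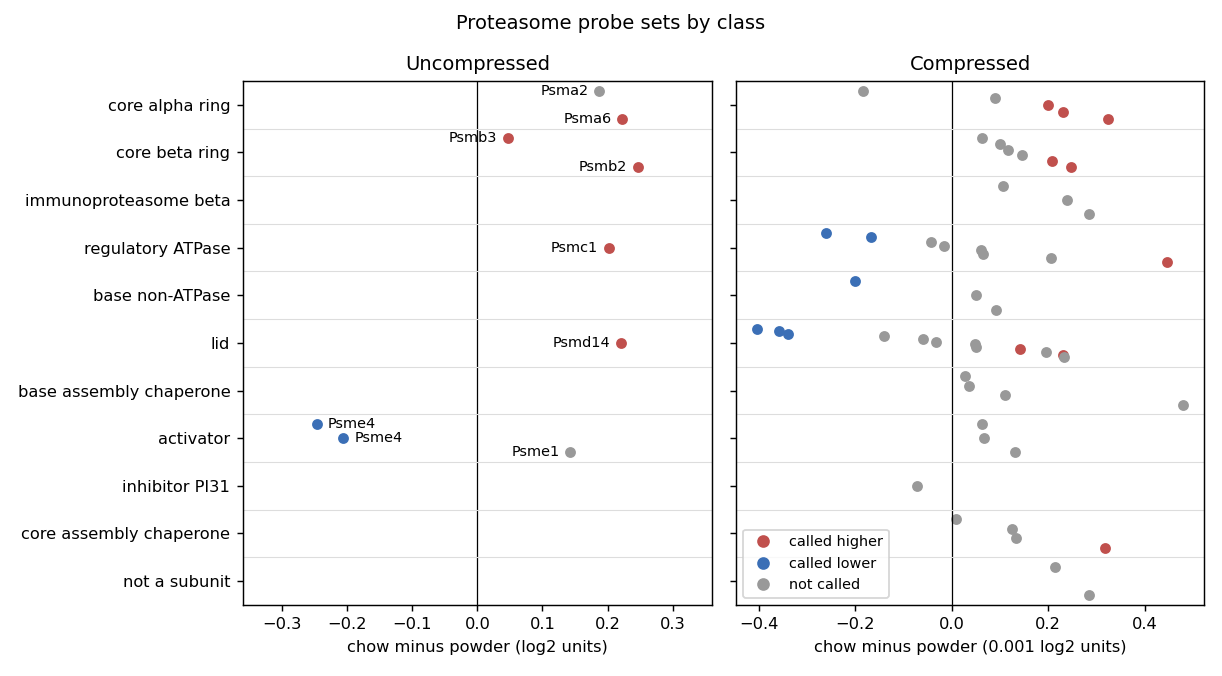
Difference of chow minus powder for each proteasome probe set by class, with uncompressed probe sets on the left (log2 units) and compressed ones on the right (thousandths of a log2 unit), coloured by call in limma. Uncompressed subunits of the 26S complex lie to the right of 0 and both Psme4 probe sets to the left, while compressed calls point both ways and stay within 0.000446 of 0.

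Counting core and regulatory particle together, 13 of 40 probe sets of 26S subunits were called higher, 6 lower and 21 neither (over all probe sets 17.9% and 16.7%). Among the 6 uncompressed ones, 5 were called higher and none lower in limma (over all uncompressed probe sets 16.1% and 38.8%). At an unadjusted p under 0.05 there were 6 higher and 0 lower. Of these 6, Psmb2, Psmb3, Psmc1 and Psmd14 had all chow arrays above all powder arrays, a pattern found in 14.1% of all uncompressed probe sets.

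The activators, which cap the core in place of the regulatory particle, had 6 probe sets for 3 genes, of which 2 were called lower and none higher in limma (0 higher also at an unadjusted p under 0.05). Over all rat probe sets 16.7% were called lower, and among the uncompressed ones 38.8%. Psme4 (PA200), a large single-chain nuclear activator, held both lower calls, on 2 uncompressed probe sets. The first read 7.94, 8.12, 7.99 and 7.97 under chow, and 8.27, 8.19, 8.26, 8.25 and 8.28 under powder. Its groups did not overlap, with chow 2 highest among the chow arrays. The difference was -0.25 ± 0.0379 log2 units (SE), a linear level of 0.843 times that under powder (adjusted p = 0.0052).

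The second Psme4 probe set read 8.18, 8.15, 8.23 and 8.21 under chow, and 8.33, 8.46, 8.42, 8.42 and 8.35 under powder. The groups again did not overlap, as in 36.0% of uncompressed probe sets for this direction. The difference was -0.21 ± 0.0303 log2 units (SE, 0.867 times, adjusted p = 0.00461). Of all uncompressed probe sets, 20.3% and 30.5% lay further below 0 than the first and the second. The remaining Psme4 probe set was compressed and not called.

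Psme1 (PA28 alpha), part of the interferon-inducible ring-shaped activator, read 9.20, 8.96, 8.84 and 9.02 under chow, and 8.85, 8.79, 8.93, 8.95 and 8.80 under powder. The groups overlapped, and chow 1 was the highest array. The difference of 0.14 ± 0.0737 log2 units (SE) was not called (adjusted p = 0.161), and without chow 1 it was 0.0771. Its partner Psme2 (PA28 beta) was compressed and not called.

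**Figure D3:**
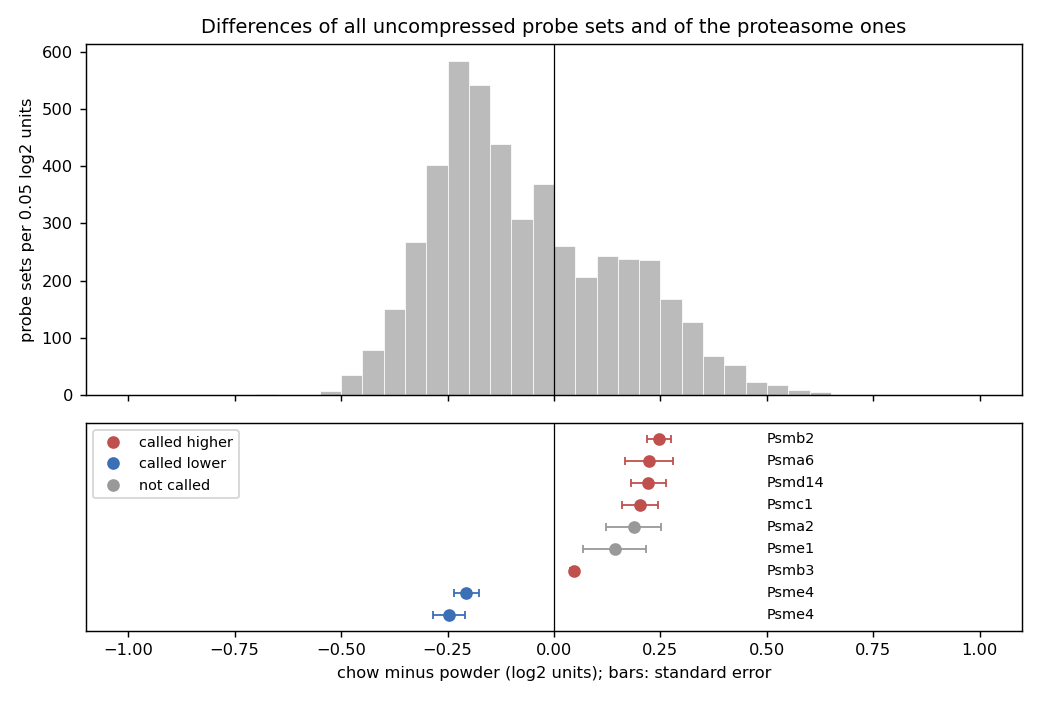
Number of all uncompressed probe sets by difference of chow minus powder (upper panel, log2 units) and the differences of the 9 proteasome probe sets with their SE (lower panel, same axis). The proteasome differences lie inside the bulk of the distribution, with 7 right of 0, where the histogram has its smaller hump, and the 2 of Psme4 left of 0, where most probe sets lie.

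Of the genes that build the complex, all were compressed. The base assembly chaperones Psmd5, Psmd9 and Psmd10, with 4 compressed probe sets, gave no call in limma, and 1 had an unadjusted p under 0.05. Of the 4 core assembly chaperones, Psmg4 was called higher by 0.000318 log2 units (adjusted p = 0.00865), and Psmg1, Psmg2 and Psmg3 were not called. Psmf1 (PI31), a proteasome-binding regulator first described as an inhibitor, was not called. Pomp, the core maturation factor and not a member by symbol, was compressed and called higher (adjusted p = 0.00455).

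In the list of the NRF1 pathway, 22 probe sets of 14 genes gave 2 higher and 7 lower calls (over all probe sets 17.9% and 16.7%). Its 3 uncompressed probe sets, for Nfe2l1, Ddi2 and Keap1, were all called, 1 higher and 2 lower, where 16.1% and 38.8% of all uncompressed probe sets were called. Nfe2l1, which encodes NRF1 itself, read 9.29, 9.38, 9.59 and 9.39 under chow, and 9.69, 9.72, 9.70, 9.75 and 9.72 under powder. All chow arrays lay below the narrow powder band, and chow 3 was nearest to it. The difference was -0.30 ± 0.0555 log2 units (SE, 0.812 times, adjusted p = 0.0088), and 2 other Nfe2l1 probe sets were compressed and not called.

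Ddi2, the protease that cuts NRF1 into its active form, read 8.48, 8.51, 8.59 and 8.58 under chow, and 8.83, 8.84, 8.95, 8.91 and 8.86 under powder, without overlap. The difference was -0.34 ± 0.035 log2 units (SE, 0.79 times, adjusted p = 0.00216), and another Ddi2 probe set was compressed and not called. Keap1, an adaptor for the degradation of the related factor NRF2, read 7.60, 7.42, 7.45 and 7.38 under chow, and 7.17, 7.17, 7.26, 7.27 and 7.27 under powder. It was higher on all chow arrays, by 0.23 ± 0.048 log2 units (SE, 1.17-fold, adjusted p = 0.0125). With the beta-actin difference in the fit, Nfe2l1 was -0.42 log2 units (adjusted p = 0.0377) and Ddi2 -0.41 (adjusted p = 0.027), both still called, while the Keap1 call was lost (0.20, adjusted p = 0.163). A second Keap1 probe set was compressed and called lower (adjusted p = 0.0135). Nfe2l2, which encodes NRF2, was compressed and called lower (adjusted p = 0.0269). The uncompressed Nfe2l1 and Ddi2 probe sets were thus lower on the same arrays on which the uncompressed Psmb2, Psmb3, Psmc1 and Psmd14 were higher. Of all uncompressed probe sets, 36.0% had all chow arrays below all powder arrays, and 14.1% had them above.

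**Figure D4:**
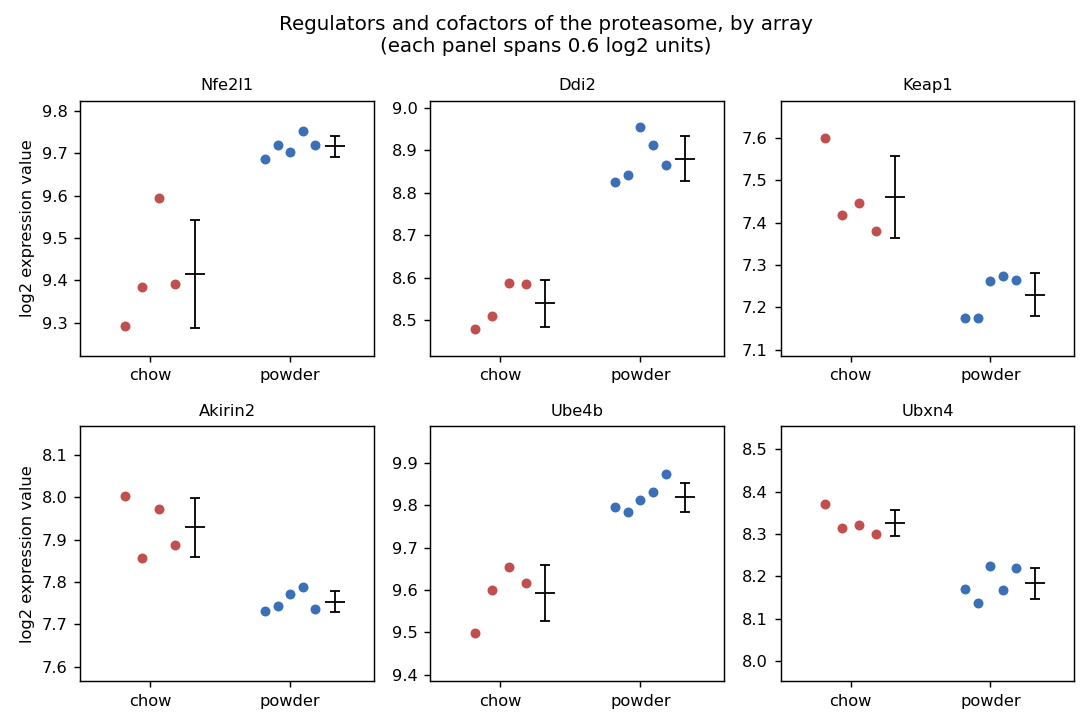
Log2 expression value (y axis) of 6 regulators and cofactors of the proteasome on each of 4 chow (red) and 5 powder (blue) arrays, with the group mean and SD (black). Nfe2l1, Ddi2 and Ube4b are lower on all chow arrays, and Keap1, Akirin2 and Ubxn4 are higher on all chow arrays. All 6 probe sets shown were called, and Txnl1, Rad23b and Zfand5 are not shown. Of all uncompressed probe sets, 36.0% had all chow arrays below all powder arrays, and 14.1% had them above.

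Among proteasome-associated factors, 35 probe sets of 18 genes gave 7 higher and 7 lower calls, near the shares over all probe sets (17.9% and 16.7%). Ddi2, which also shuttles ubiquitinated proteins, is on this list too. Akirin2, which carries proteasomes into the nucleus, read 8.003, 7.86, 7.97 and 7.89 under chow, and 7.73, 7.74, 7.77, 7.79 and 7.74 under powder. The difference was 0.18 ± 0.032 log2 units (SE, 1.13-fold, adjusted p = 0.0085), with no overlap. With the beta-actin difference in the fit it was 0.11 and not called (adjusted p = 0.148). Txnl1, a thioredoxin-like protein of the regulatory particle, had 2 uncompressed probe sets called in opposite directions, so no direction can be given for the gene. One read 9.48, 9.23, 9.49 and 9.32 under chow, and 9.12, 9.13, 9.24, 9.25 and 9.17 under powder, with overlap. Its difference was 0.19 ± 0.0627 log2 units (SE, adjusted p = 0.0484). This call was lost in 8 of the 9 fits that left out 1 array, and with the beta-actin difference in the fit (0.043, adjusted p = 0.708). The other read 6.67, 6.66, 6.69 and 6.79 under chow, and 6.98, 6.99, 7.04, 6.95 and 6.998 under powder, without overlap. Its difference of -0.29 ± 0.0298 log2 units (SE, adjusted p = 0.00216) was still called with the beta-actin difference in the fit (-0.28, adjusted p = 0.0399). The shuttle factor Rad23b had a difference of 0.17 (adjusted p = 0.0529) and Zfand5, which binds and activates the proteasome, one of -0.097 (adjusted p = 0.156), and neither uncompressed probe set was called.

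The VCP cofactors, partners of the segregase that extracts proteins for the proteasome, gave 5 higher and 4 lower calls in 21 probe sets of 11 genes, where 17.9% and 16.7% of all probe sets were called. Ube4b, an enzyme that extends ubiquitin chains, read 9.50, 9.60, 9.65 and 9.62 under chow, and 9.79, 9.78, 9.81, 9.83 and 9.87 under powder. The difference was -0.23 ± 0.0329 log2 units (SE, 0.855 times, adjusted p = 0.0045), and another Ube4b probe set was compressed and not called. Ubxn4, an endoplasmic reticulum anchor of VCP, read 8.37, 8.31, 8.32 and 8.30 under chow, and 8.17, 8.14, 8.22, 8.17 and 8.22 under powder. It was higher on all chow arrays, by 0.14 ± 0.0225 log2 units (SE, 1.1-fold, adjusted p = 0.00551). The other Ubxn4 probe sets were compressed and not called. With the beta-actin difference in the fit, neither Ube4b (-0.26, adjusted p = 0.0503) nor Ubxn4 (0.15, adjusted p = 0.0729) was called. The ubiquitin genes and E1 enzymes had 5 probe sets of 2 genes, all compressed, of which both Uba6 calls were lower.

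The list of MHC class I loading and interferon response, whose genes share inducers with the immunoproteasome, had 24 probe sets of 18 genes. Of these probe sets, 21 were compressed, so the counts show little about a change in the list. It gave 4 higher and 3 lower calls, no more than the shares over all probe sets (17.9% and 16.7%). Its 1 uncompressed call was Ifit2, an interferon-induced RNA-binding protein, at 7.10, 7.37, 7.40 and 7.35 under chow, and 7.63, 7.75, 7.75, 7.63 and 7.64 under powder. The difference was -0.37 ± 0.0677 log2 units (SE, 0.773 times, adjusted p = 0.00848). With the beta-actin difference in the fit it was -0.39 and not called (adjusted p = 0.0902). Another Ifit2 probe set was compressed and not called. The 2 uncompressed probe sets for B2m, the light chain of MHC class I, pointed opposite ways and were not called (0.098 and -0.11 log2 units). The microglial sums, a cell type rich in immunoproteasome, were 3014 to 3351 under chow and 3085 to 3179 under powder, with 1 higher and 1 lower call in 16 probe sets.

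The calls in Psmb2, Psmb3, Psmc1, Psmd14 and both Psme4 probe sets held without each of the 9 arrays in turn. With the beta-actin difference in the fit, Psmb2 was 0.19 log2 units and still called (adjusted p = 0.0434), as was the second Psme4 probe set at -0.26 (adjusted p = 0.0373). The first Psme4 probe set was -0.21 (adjusted p = 0.0908), Psma6 0.16 (0.275), Psmc1 0.16 (0.171), Psmd14 0.11 (0.136) and Psmb3 0.025 (0.122), and these 5 were no longer called. Psma2, not called in either fit, went from 0.19 to 0.036 log2 units (adjusted p = 0.77), and Psme1 was 0.14 (adjusted p = 0.483). Each of the 9 probe sets kept its direction. The beta-actin difference ran from 1.44 to 1.58 under chow and from 1.55 to 1.70 under powder. It thus went largely with diet, so RNA integrity and diet cannot be told apart by this fit.

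**Figure D5:**
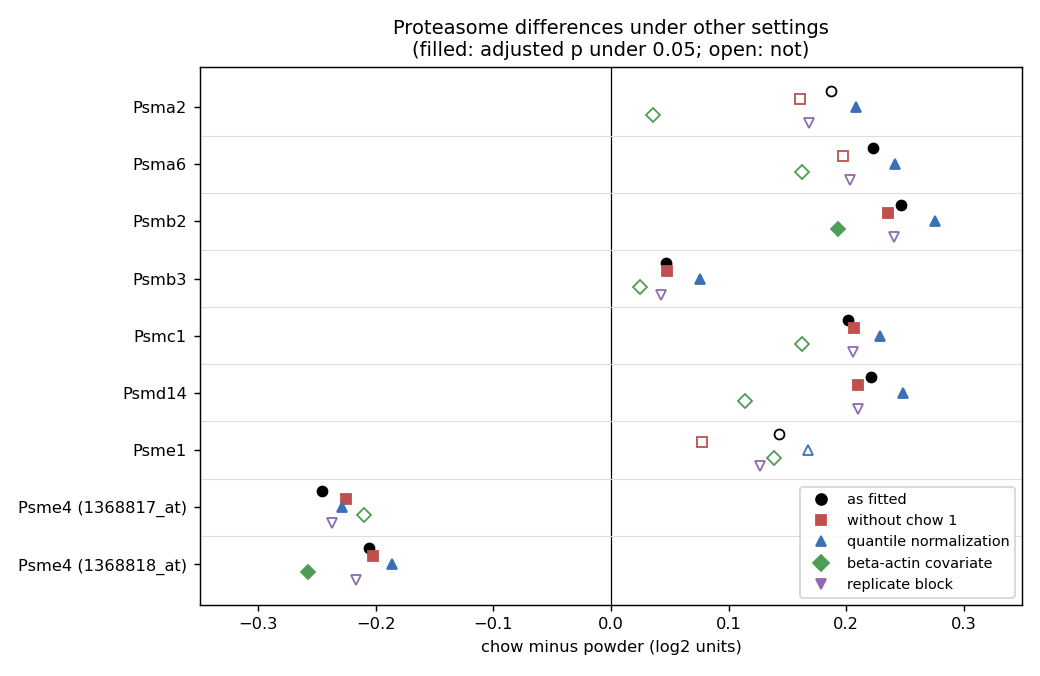
Difference of chow minus powder (x axis, log2 units) of the 9 uncompressed proteasome probe sets as fitted and under 4 other settings, filled where the adjusted p was under 0.05. No difference crosses 0, and with the beta-actin covariate 1 of the 5 higher calls (Psmb2) and 1 of the 2 lower calls (Psme4) are filled.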

How the data were processed

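RNA of 9 rat thalamus samples (4 chow, 5 powder) was labelled as biotin cRNA from 100 ng, per the labels' protocols. The deposited table gives, for each array, 1 log2 value for every probe set. The log2 scale was read from the values (5.37 to 14.0), and for the summarisation software and the normalization the entry is "not given in the sources used here". Gene symbols came from the platform annotation, and 57 control probe sets were left out. The other 31042 were fitted as deposited with limma 3.58.1 (lmFit and eBayes) in R 4.3.3. Benjamini-Hochberg adjustment ran over all, with a threshold of 0.05 and no filter. The fit was tested on simulated data with independent noise for each probe set. Those data held no array-wide shift and no difference in RNA integrity, so the test does not cover either. Probe sets of a gene were kept apart. A span of 0.01 log2 units set apart compressed probe sets. Every member was counted by class. Values on every array are given for called uncompressed members and list genes, with other members by difference, count or range; array values of Psma2 and Psme1, which were not called, and the names of single compressed probe sets were added after their values were seen. Marker sums add the linear levels of 1 probe set per listed gene, the one with the highest mean.

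The members, lists and rules were chosen with earlier results of these data known. Alternatives were median and quantile scaling, trended and robust variance, array weights, a dim filter, leaving out compressed probe sets, a beta-actin covariate, a replicate block, a threshold of 0.1, and leaving out each array.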

Additional observations from a re-analysis of the deposited data

Results flagged for a closer look

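Of 36 groups of arrays tested for 1 array far from the rest, 1 stood out: chow 1 in Ifit2, at a log2 value of 7.1, where the other chow arrays read at least 7.35. The gap was 0.848 of the group's range, above Dixon's limit for 4 samples. Chance marks about 1 in 20 groups. Without chow 1 the difference was -0.30 log2 units, still called in limma (adjusted p = 0.00727), and with the beta-actin difference in the fit it was -0.39 and not called (adjusted p = 0.0902).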

How the results depend on the processing

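The limma fit called 14 proteasome probe sets higher and 8 lower, of which 5 and 2 were uncompressed. With array medians subtracted 57 were called higher and 2 lower, and with quantile normalization 51 and 2; 13 of the 51 compressed members changed direction under each. Adding the beta-actin difference left 1 higher and 2 lower, of which 1 and 1 were uncompressed. Without the compressed probe sets 6 were higher and 2 lower of the 9 then tested. Leaving out each array gave 11 to 15 higher, 6 to 8 lower, and 4 to 5 and 2 uncompressed, with 4 without chow 1. Deviations of same-numbered chow and powder arrays had correlations from -0.344 to 0.186. So few correlations cannot exclude that the numbers mark a shared batch. With a replicate block on the 8 arrays whose numbers occur in both groups, limma called 0 members higher and 0 lower (14 and 8 at an unadjusted p under 0.05). The same 8 arrays without the block gave 13 higher and 7 lower calls. Over all probe sets the block left 1 higher and 18 lower. Trended and robust variance, array weights, the dim filter and a threshold of 0.1 kept all 4 counts within 1.5 times, and the uncompressed calls pointed the same way in all settings. The differences of compressed probe sets are small against any array-wide shift, and the array medians differed by up to 0.0112 log2 units. These medians were 7.3907 to 7.3964 under chow and 7.3978 to 7.4019 under powder, so they separated by diet.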
